A study of Mus musculus with 160 samples.

Results

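The 9 transcription factors that build the kidney, the gonad and the adrenal cortex were followed through the 8 cell populations sorted from the aorta-gonads-mesonephros region (AGM) of Gata3-GFP embryos. The genes were Wt1, Nr5a1, Osr1, Pax2, Pax8, Lhx1, Lhx9, Emx2 and Six2, a list of named genes set with earlier results of these data known, and all 9 were found among the 46078 genes of the count table. In the mesenchymal cells, which answered the main question, 5 of the 9 factors had enough counts to be tested. None was called different between GFP+ and GFP- pools at the threshold used, where 5.52% of all genes tested were called higher and 4.89% lower. Wt1 came close (log2 fold change -1.44, adjusted p = 0.0137, edgeR). It was called lower by DESeq2 and by the t-test of the study's methods. In the Ngfr+ cells, 8 of the 9 factors were lower in the GFP+ pools, by 17.1-fold to 78.2-fold in the fit, once 6 pools whose Pdgfrb exceeded their Ngfr were left out, where 5.48% of all genes tested were lower. With those pools kept, 6 of the 9 were lower, where 1.86% of all genes were. Without those 6 pools, each of the 8 factors entered the test through its GFP- pools, as did the 6 factors called with those pools kept. Their shared direction was thus partly set by the number of counts required.

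The AGM is the part of the embryo in which haematopoietic stem cells first form around the dorsal aorta, and it also holds the mesonephros, the gonadal ridge and the primordia of the adrenal gland and the sympathetic ganglia. All embryos were Gata3-GFP +/-, so that the GFP- populations carried the reporter allele too, and GFP marks the cells in which Gata3 is active. Endothelial cells (EC) were sorted as Cdh5+ and negative for CD41 and CD45, and haematopoietic cells (HC) as the fraction stained for CD41 and CD45 (CD41/45+), at embryonic day E10.5. Mesenchymal cells (MC) were sorted as Pdgfrb+ and sympathetic nervous system cells (SNS) as Ngfr+, at E11.5, and each type was split into GFP+ (Gata3+) and GFP- (Gata3-). Each of the 8 populations gave 20 pools of 20 cells, from which libraries were made by Smart-seq2, a full-length cDNA method without molecular identifiers. Cells of several embryos were combined before the pools were made, and the pools were not tied to embryos, so the p-values measure the spread between pools, which may be technical.

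The kidney, the gonad and the cortex of the adrenal gland all arise from the intermediate mesoderm and the coelomic epithelium that covers it. Osr1 marks this mesoderm at its start, Pax2, Pax8 and Lhx1 set up the nephric duct and its tubules, and Six2 holds nephron progenitors undifferentiated. Wt1, Emx2 and Lhx9 act in the coelomic epithelium and the gonadal ridge, and Nr5a1 (steroidogenic factor 1) is needed for the adrenal cortex and the gonad and switches on the enzymes of steroid synthesis. Gata3 itself is known in the nephric duct and in sympathetic neurons.

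Of the 160 pools, 7 failed the limits on depth and quality, all on the number of reads, and the others had 1400824 to 16004756 counts on genes per pool. A count of 3 in a pool of median depth corresponded to 0.656 to 1.07 CPM (10 to the power 6 times the count over the pool's total on genes), depending on the population, and such limits cover counting error only. In all, 12 pools went against their sort: 6 MC pools, 3 GFP+ and 3 GFP-, had more counts of Ngfr than of Pdgfrb, and 6 SNS pools, 3 GFP+ and 3 GFP-, had more of Pdgfrb than of Ngfr. They were the last 3 columns of each E11.5 population, and whether their labels were exchanged between the sorts was not tested, so each value that includes them rests on labels that their marker genes go against. In the 3 such Gata3- MC pools Gata3 stood at 128.7, 369 and 413 CPM, against a highest value of 19.4 CPM in the other 14 pools, and in the 3 such Gata3+ SNS pools it stood at 10.3 to 23.5 CPM, against a lowest value of 116.4 CPM in the other 15. The MC comparison was made without its 6 pools, and the SNS comparison is given with and without its 6. Without them, Gata3 was higher in the GFP+ pools by 1.88 on the log2 scale in MC (SE 0.22, adjusted p = 9.0e-08, edgeR) and by 2.10 in SNS (SE 0.23, adjusted p = 3.2e-08). With the 6 MC pools kept, the MC value turned to -0.66 (adjusted p = 0.496), and with the 6 SNS pools kept the SNS value was 1.85. The same difference was 2.66 in EC and 2.89 in HC. The mesenchyme markers (8 genes) summed to 2220 to 4335 CPM in the MC pools and to 31.3 to 529 CPM in the SNS pools, and the sympathetic and neural crest markers (10 genes) summed to 9.24 to 130.5 CPM in MC and 763 to 3514 CPM in SNS, without the 12 pools. These pools were set aside by Ngfr and Pdgfrb, which are in the lists, so the gap between the ranges is a description. With them, the mesenchyme sum started at 46.9 CPM in MC and reached 4297 CPM in SNS.

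**Figure D1:**
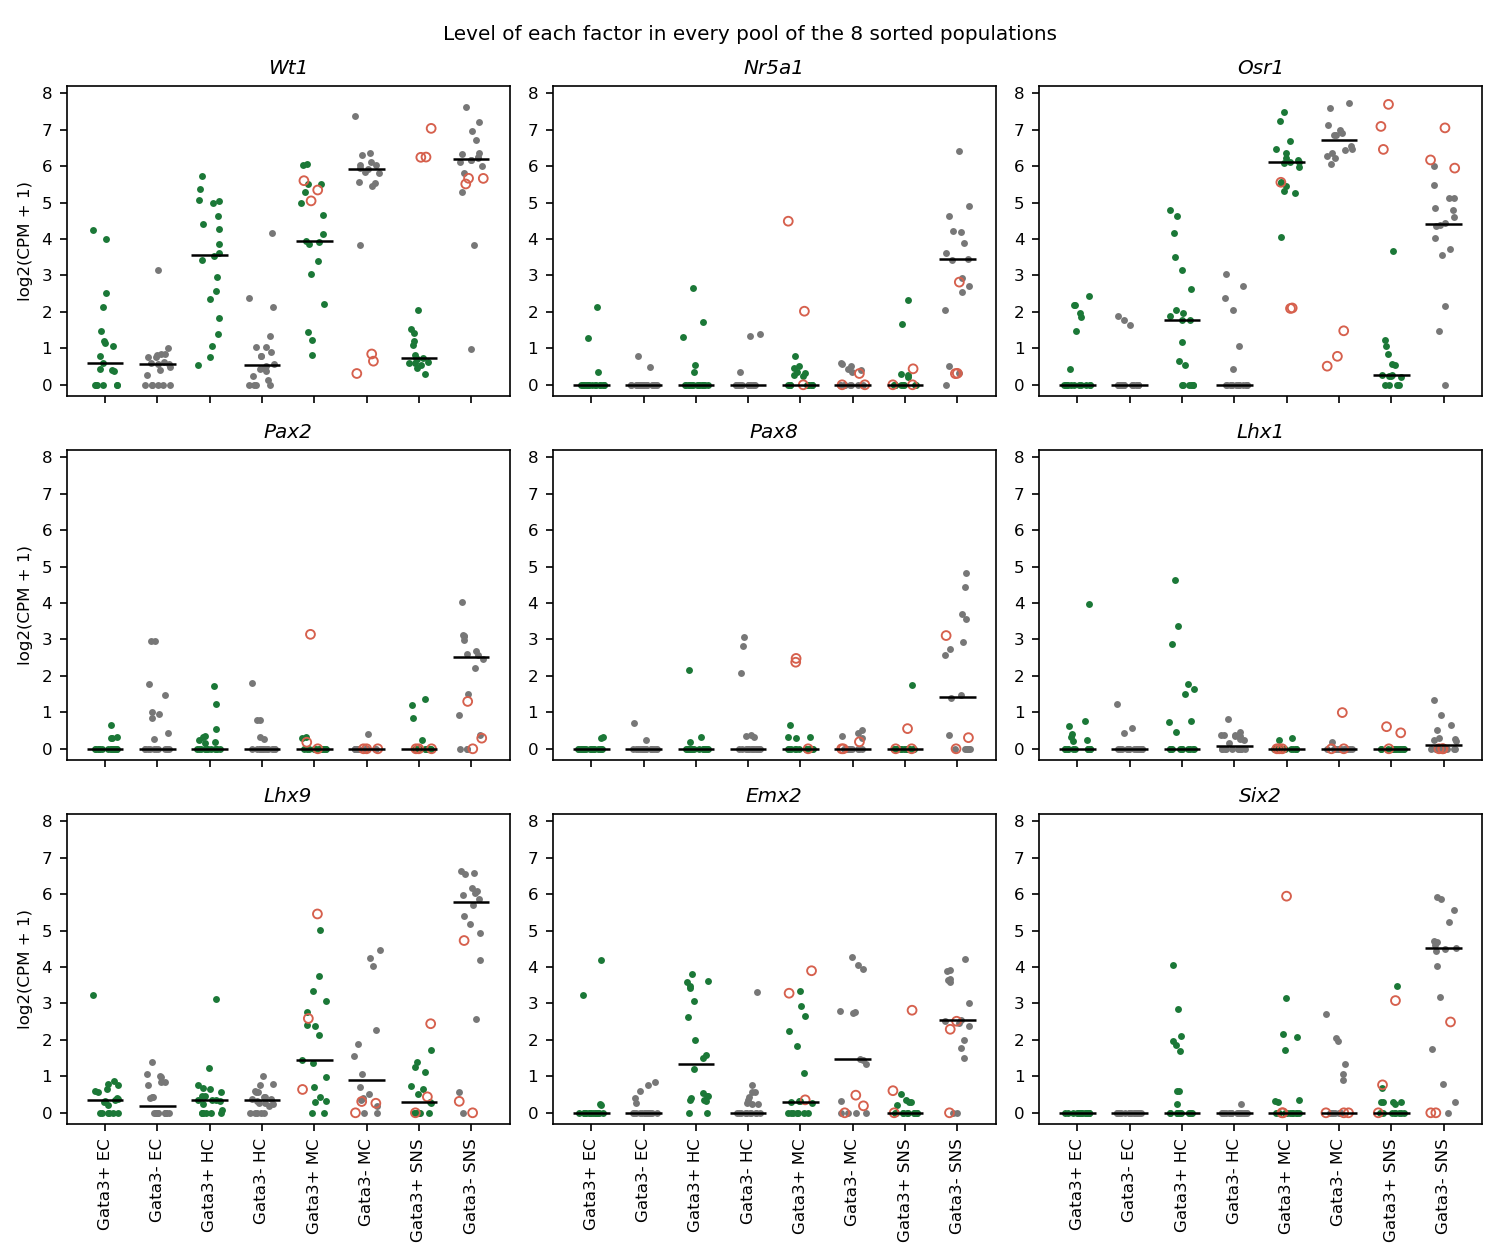
Level of each of the 9 factors in every pool that passed, as log2(CPM + 1), for the 8 sorted populations (Gata3+ in green, Gata3- in grey). Black bars mark medians, and open red circles are the 12 pools that went against their sort, which the medians leave out. Wt1 and Osr1 were present in both MC populations. Osr1 has its highest median in Gata3- MC and 7 of the others in Gata3- SNS, while the medians of Lhx1 are close to 0 throughout.

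Wt1 (ENSMUSG00000016458, chr2:105126529-105173616, plus strand, GRCm38), the zinc finger factor of the coelomic epithelium and the nephrogenic mesenchyme, was the most widespread of the 9. Its mean level was 78.7 ± 47.4 CPM (SD, n = 16) in Gata3- SNS, 64.6 ± 33.8 CPM (n = 14) in Gata3- MC, 23.3 ± 21.4 CPM (n = 17) in Gata3+ MC and 15.9 ± 14.97 CPM (n = 20) in Gata3+ HC. In the remaining populations it was 2.56 CPM or less, and in Gata3+ SNS it was 0.966 ± 0.768 CPM (n = 15). Emx2 (ENSMUSG00000043969, chr19:59458372-59465357, plus strand), a homeobox factor of the urogenital epithelia, was spread over the same 4 populations at a lower level, with 7.03 ± 5.50 CPM in Gata3- SNS, 5.09 ± 6.46 CPM in Gata3- MC, 3.92 ± 4.66 CPM in Gata3+ HC and 1.74 ± 2.83 CPM in Gata3+ MC. Of the exon bases of Emx2, 8.79% overlap the opposite-strand gene Emx2os, and reads of the overlap cannot be told apart because the strand setting of the counting was not stated. The intervals of mean ± SD of neighbours in these orders overlapped at every step, which describes the spread of the pools and is no test of a difference.

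Lhx9 (ENSMUSG00000019230, chr1:138825186-138848577, minus strand), a LIM homeobox factor needed for the gonad to form, was concentrated in Gata3- SNS, where it reached 49.2 ± 32.7 CPM (n = 16). It fell to 4.94 ± 7.71 CPM in Gata3+ MC and 4.70 ± 7.45 CPM in Gata3- MC, and it was 0.720 CPM or less in the other 5 populations. The step from Gata3- SNS to Gata3+ MC, 9.96-fold between means, was the only one among the 9 factors at which the intervals of neighbouring populations did not overlap. Nr5a1 (ENSMUSG00000026751, chr2:38692656-38714542, minus strand) was at 14.8 ± 20.3 CPM in Gata3- SNS and at 0.492 CPM or less on average in each of the other 7, where at most 2 pools of a population held 10 counts. In Gata3- SNS its level ranged over the pools from 0 to 83.9 CPM.

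Osr1 (ENSMUSG00000048387, chr12:9570116-9581500, plus strand), the zinc finger factor of the early intermediate mesoderm, was highest in MC. It stood at 112.9 ± 43.7 CPM (n = 14) in Gata3- MC, 72.7 ± 40.4 CPM (n = 17) in Gata3+ MC, 22.3 ± 16.4 CPM (n = 16) in Gata3- SNS, 5.34 ± 8.03 CPM in Gata3+ HC and at 1.12 CPM or less elsewhere. Six2 (ENSMUSG00000024134, chr17:85684277-85688274, minus strand), the factor of nephron progenitors, stood at 22.8 ± 19.1 CPM in Gata3- SNS and at 1.70 CPM or less in the other 7 populations, and it had no count in any of the 39 EC pools. Per kilobase of exon, which allows genes to be compared, the highest mean levels among the factors were those of Osr1 in Gata3- MC (54.6 CPM per kb) and in Gata3+ MC (35.2). In Gata3- SNS the levels per kilobase were 12.7 for Wt1, 10.8 for Osr1, 10.7 for Six2, 5.18 for Lhx9, 3.50 for Nr5a1 and 2.34 for Emx2.

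The paired box factors were low in every population. Pax2 (ENSMUSG00000004231, chr19:44756045-44837871, plus strand) stood at 4.48 ± 4.09 CPM (n = 16) in Gata3- SNS and at 1.06 ± 2.08 CPM (n = 20) in Gata3- EC, its next highest mean. Pax8 (ENSMUSG00000026976, chr2:24420560-24475599, minus strand; 6.06% of its exon bases overlap the opposite-strand gene Gm13415) stood at 5.74 ± 8.25 CPM in Gata3- SNS and at 0.873 ± 2.13 CPM in Gata3- HC, its next highest mean. Lhx1 (ENSMUSG00000018698, chr11:84518284-84525535, minus strand), the LIM homeobox factor of the nephric duct, was close to undetected in the E11.5 populations, with no pool at 10 counts among those used and 1.52 CPM as its highest value. It was seen at E10.5 instead, with 10 counts or more in 4 of 20 Gata3+ HC pools, up to 23.8 CPM, and in 1 of 19 Gata3+ EC pools at 14.6 CPM.

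The comparison of GFP+ with GFP- mesenchymal pools asked whether Gata3 activity splits the Pdgfrb+ cells by these factors. Of the 9 factors, 5 had enough counts to be tested, which took 5 pools with 10 counts or more. None was called, a call being an adjusted p under 0.01 with a log2 change over 0.1 either way, where 5.52% of all 15226 genes tested were called higher and 4.89% lower in edgeR's quasi-likelihood test. At an unadjusted p under 0.05 there were 2 factors, Wt1 and Osr1, and DESeq2 and the t-test with overestimated variance of the study's methods each called 1, Wt1. Nr5a1, Pax2, Pax8 and Lhx1 were too low to be tested in MC, where none of them reached 10 counts in any of the pools used. Their highest counts in a pool there were 3 for Nr5a1, 2 for Pax8 and 1 each for Pax2 and Lhx1, so that a difference was not detectable at this depth.

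Wt1 in the 17 Gata3+ MC pools ranged from 0.756 to 66.1 CPM with a median of 14.3 CPM, and in the 14 Gata3- MC pools from 13.4 to 166 CPM with a median of 60.03 CPM. The groups overlapped, with 6 Gata3+ pools below every Gata3- pool and 4 Gata3- pools above every Gata3+ pool. The log2 fold change was -1.44 (SE 0.42), with an adjusted p of 0.0137 that missed the threshold. With the 6 MC pools of high Ngfr kept, it was -1.03 with an adjusted p of 0.214. The 3 Gata3+ pools among them held Wt1 at 32.1 to 47.6 CPM and the 3 Gata3- pools at 0.240 to 0.797 CPM, which is the reverse of the order in the other pools. In pools of cells, fewer Wt1-positive cells and less Wt1 RNA per cell cannot be told apart, here and in the results that follow.

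Osr1 in Gata3+ MC ranged from 15.7 to 177 CPM with a median of 67.8 CPM, and in Gata3- MC from 65.4 to 213 CPM with a median of 104.1 CPM. Here 7 Gata3+ pools lay below every Gata3- pool, and the rest overlapped. The log2 fold change was -0.64 (SE 0.23, adjusted p = 0.05005). Every MC pool used held Osr1 at 10 counts or more, so the factor was present on both sides of the GFP gate. Emx2 was detected at 10 counts in 5 of 17 Gata3+ and 6 of 14 Gata3- MC pools, with medians of 0.227 and 1.77 CPM, and its log2 fold change was -1.52 (SE 0.88, adjusted p = 0.268). Lhx9 and Six2 gave log2 fold changes of 0.08 (95% interval -1.48 to 1.65) and -0.07 (-1.92 to 1.78), intervals that run past 1 log2 unit in either direction. Lhx9 reached 31.3 CPM in a Gata3+ pool and 21.1 CPM in a Gata3- pool while both medians were under 2 CPM.

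Gata3+ MC pools also held more of the sympathetic and neural crest markers, 51.4 to 130.5 CPM in sum against 9.24 to 48.2 CPM in Gata3- MC, with Isl1 (log2 fold change 3.17) and Hand2 (1.78) called higher among 5 tested. Over all genes tested, 5.52% were called higher. Ngfr was not called (0.56, adjusted p = 0.588, edgeR). Of the same list, Phox2a and Foxd3 had a median of 0 in both MC groups. Whether the pools held sympathetic or neural crest cells was not tested, nor was any part of such cells in the levels of the factors.

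The comparison in the Ngfr+ cells, sorted as sympathetic nervous system cells, gave the clearest pattern among the factors. Whether the sort also held cells of other kinds was not tested. All 8 factors tested were lower in Gata3+ SNS (15 pools) than in Gata3- SNS (16 pools) and all 8 were called, where 5.48% of the 15658 genes tested were called lower and 4.94% higher. None of the 8 held 10 counts in more than 3 Gata3+ SNS pools, so each entered the test through the Gata3- SNS pools. Their shared direction was thus partly set by the filter on counts, and the number of calls is a description. Lhx1 was too low to be tested. With all pools that passed kept, 18 against 19, 6 factors of 8 tested were called lower, where 1.86% of 16143 genes were called lower and 2.01% higher. None of these 6 held 10 counts in more than 3 Gata3+ SNS pools, so the limit set by the filter holds for them too. Wt1 and Osr1 lost their calls. These 2 were the factors that the 3 Gata3+ SNS pools of high Pdgfrb held in quantity, Wt1 at 74.7 to 130 CPM and Osr1 at 87.02 to 206 CPM. The median log2 fold change of the 8 factors was -4.94 without the 6 pools and -4.09 with them, against -0.01 over all genes tested without them.

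Wt1 in Gata3- SNS ranged from 0.962 to 195 CPM with a median of 72.5 CPM, and in Gata3+ SNS from 0.236 to 3.13 CPM with a median of 0.650 CPM. The groups met only through 1 pool, since 15 of 16 Gata3- pools lay above every Gata3+ pool. The log2 fold change was -6.29 (SE 0.44, adjusted p = 3.1e-12), and with all pools it was -2.18 (SE 0.72, adjusted p = 0.0507). Emx2 ranged from 0 to 17.5 CPM in Gata3- SNS with a median of 4.82 CPM, and in Gata3+ SNS it did not exceed 0.433 CPM. Its log2 fold change was -6.04 (SE 0.69, adjusted p = 7.1e-08), with 14 of 16 Gata3- pools above every Gata3+ pool, and -3.99 with all pools.

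Lhx9 ranged from 0 to 99.1 CPM in Gata3- SNS with a median of 53.8 CPM, and from 0 to 2.32 CPM in Gata3+ SNS with a median of 0.224 CPM. Again 14 of 16 Gata3- pools lay above every Gata3+ pool, and the log2 fold change was -6.29 (SE 0.64, adjusted p = 6.6e-09) without the 6 pools and -5.76 with them. Nr5a1 ranged from 0 to 83.9 CPM in Gata3- SNS with a median of 9.88 CPM, and in Gata3+ SNS it was listed at 0 in 10 of 15 pools and reached 3.97 CPM. Here 12 Gata3- pools lay above every Gata3+ pool. The log2 fold change was -4.86 (SE 0.81, adjusted p = 3.8e-05), and -4.82 with all pools.

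Osr1 ranged from 0 to 63.1 CPM in Gata3- SNS with a median of 20.3 CPM, and from 0 to 11.8 CPM in Gata3+ SNS with a median of 0.195 CPM. The groups overlapped, with 12 of 16 Gata3- pools above every Gata3+ pool, and in Gata3+ SNS a single pool reached 10 counts. The log2 fold change was -4.19 (SE 0.68, adjusted p = 2.5e-05), and -0.40 (adjusted p = 0.840) with all pools. Six2 ranged from 0 to 59.7 CPM in Gata3- SNS with a median of 21.9 CPM, and in Gata3+ SNS it was listed at 0 in 8 of 15 pools and reached 10.1 CPM. Its log2 fold change was -4.69 (SE 0.81, adjusted p = 6.0e-05), and -4.11 with all pools.

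Pax2 ranged from 0 to 15.2 CPM in Gata3- SNS with a median of 4.70 CPM, and did not exceed 1.57 CPM in Gata3+ SNS. Of the 16 Gata3- pools, 11 lay above every Gata3+ pool, and the log2 fold change was -4.09 (SE 0.83, adjusted p = 4.6e-04). Pax8 ranged from 0 to 27.4 CPM in Gata3- SNS with a median of 1.70 CPM, and 14 of the 15 Gata3+ pools were listed at 0, with the remaining pool at 2.38 CPM. Only 7 of the 16 Gata3- pools lay above every Gata3+ pool, so the groups overlapped most for this factor, and the log2 fold change was -5.02 (SE 1.04, adjusted p = 6.3e-04). Lhx1 had 18 counts in all in the Gata3- SNS pools and none in the Gata3+ SNS pools, too few for a test.

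**Figure D2:**
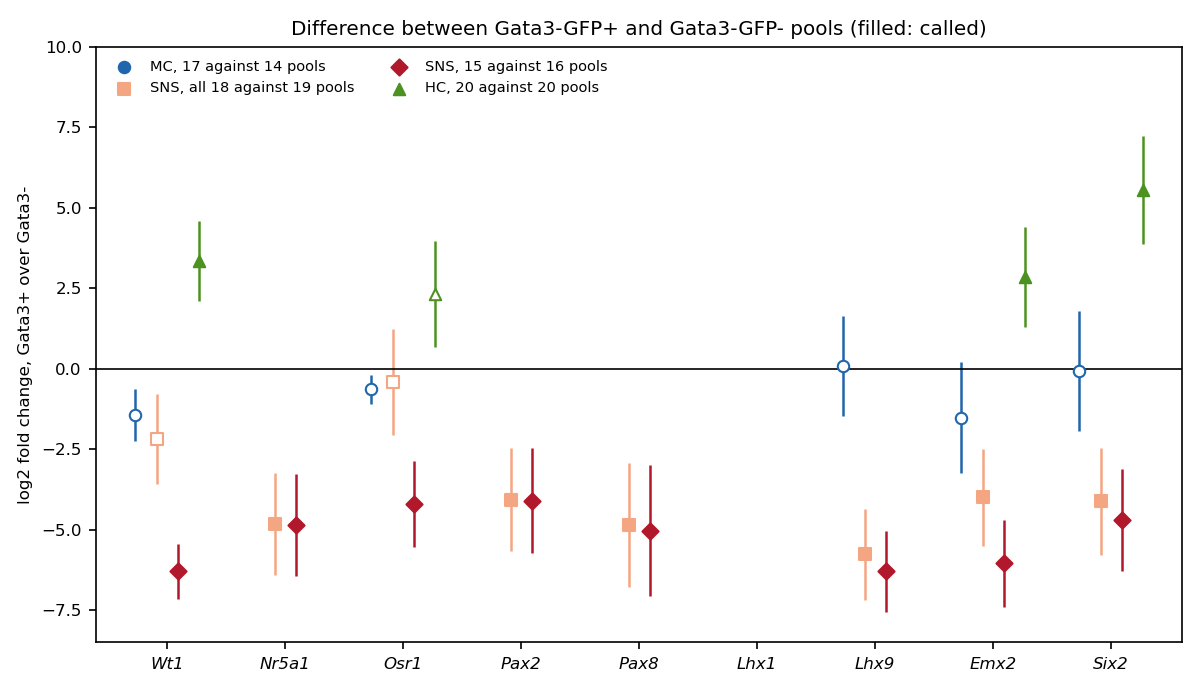
Log2 fold change of each factor between Gata3+ and Gata3- pools, with 95% intervals, in MC (circles), in SNS with all pools (squares) and without the 6 pools of high Pdgfrb (diamonds) and in HC (triangles). Filled symbols were called at an adjusted p under 0.01. The diamonds lie between -6.29 and -4.09, the circles span -1.52 to 0.08 with no call, and the triangles are above 0.

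Other genes moved with the factors in SNS, and their part in the result was not tested. Without the 6 pools, 6 of 8 mesenchyme markers were lower in Gata3+ SNS (none of 8 with them), among them Pdgfra at a log2 fold change of -4.93, and their sum was 31.3 to 221 CPM against 174 to 529 CPM. Of the 10 sympathetic and neural crest markers, 7 were higher, led by Th (3.59), the rate-limiting enzyme of catecholamine synthesis, and Phox2a (3.11), and 2 were lower, Ngfr (-1.38) and Foxd3 (-1.40). With the 6 pools kept, 3 were higher and none lower. Over all genes tested without the 6 pools, 5.48% were called lower and 4.94% higher. No epithelium marker of 4 tested was called, and Cdh1, Krt19, Cldn3 and Cldn4 had a median of 0 in both SNS groups.

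The promoters of the members were read because the factors moved together in the SNS pools. RefSeq promoter windows, read over their 250 bases before the start, were listed for 6 of the 9 factors, Pax2 (3 windows), Pax8, Lhx1, Lhx9, Emx2 and Six2, and not for Wt1, Nr5a1 and Osr1. Each was searched on both strands for GATAA, the core of the sequence that GATA factors bind, and for TAATTA, a core of homeodomain sites, letter strings that do not overlap each other. GATAA, or its reverse complement, was in the window of 3 of the 6 factors, Lhx9, Pax8 and Six2. It was in none of the 3 windows of Pax2 and not in those of Lhx1 and Emx2. Of the 32851 promoter windows in the table, 22.6% held it, a share counted per window and not per factor. TAATTA was in no window of the 6 factors and in 4.84% of all windows. A match describes letters only. The 3 windows with a match are shown 5' to 3' on the strand of the gene (GRCm38.p6), with the matching bases in capitals.
Lhx9, chr1:138842445-138842694, minus strand: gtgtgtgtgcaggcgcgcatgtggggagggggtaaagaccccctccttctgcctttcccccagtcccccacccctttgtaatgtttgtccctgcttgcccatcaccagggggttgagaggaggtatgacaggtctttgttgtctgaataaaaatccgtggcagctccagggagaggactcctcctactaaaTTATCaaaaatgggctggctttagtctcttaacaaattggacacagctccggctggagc
Pax8, chr2:24475600-24475849, minus strand: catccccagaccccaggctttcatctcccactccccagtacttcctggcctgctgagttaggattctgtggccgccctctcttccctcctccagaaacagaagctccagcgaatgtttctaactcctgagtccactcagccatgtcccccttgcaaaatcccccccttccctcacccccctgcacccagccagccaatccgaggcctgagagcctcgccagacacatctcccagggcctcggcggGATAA
Six2, chr17:85688255-85688504, minus strand: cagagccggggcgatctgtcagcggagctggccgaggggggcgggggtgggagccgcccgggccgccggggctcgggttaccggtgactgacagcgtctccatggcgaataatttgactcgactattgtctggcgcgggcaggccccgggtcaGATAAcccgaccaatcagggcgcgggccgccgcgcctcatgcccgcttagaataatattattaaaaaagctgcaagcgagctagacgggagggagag
In the GENCODE annotation, the window of Lhx9 lies inside an intron of the longer transcripts of the gene, that of Six2 reaches into the first exon and that of Pax8 lies inside the opposite-strand gene Gm13415.

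Among the 16 Gata3- SNS pools the number of factors at 10 counts or more ran from 0 to 8 with a median of 6.5, and 11 pools held 6 or more. In the same count, the 15 Gata3+ SNS pools had a median of 0 and the MC pools of either kind a median of 3. A pool of 20 cells with 6 of the factors is a mixture or holds cells with several of them, and pools cannot tell these apart. The 1 Gata3- SNS pool with none of the factors at 10 counts had Wt1 at 0.962 CPM and Six2 at 0.721 CPM and the other 7 at 0, while Ngfr stood at 301 CPM and the neural crest factor Sox10 at 411 CPM, both inside the range of the other 15 pools.

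**Figure D3:**
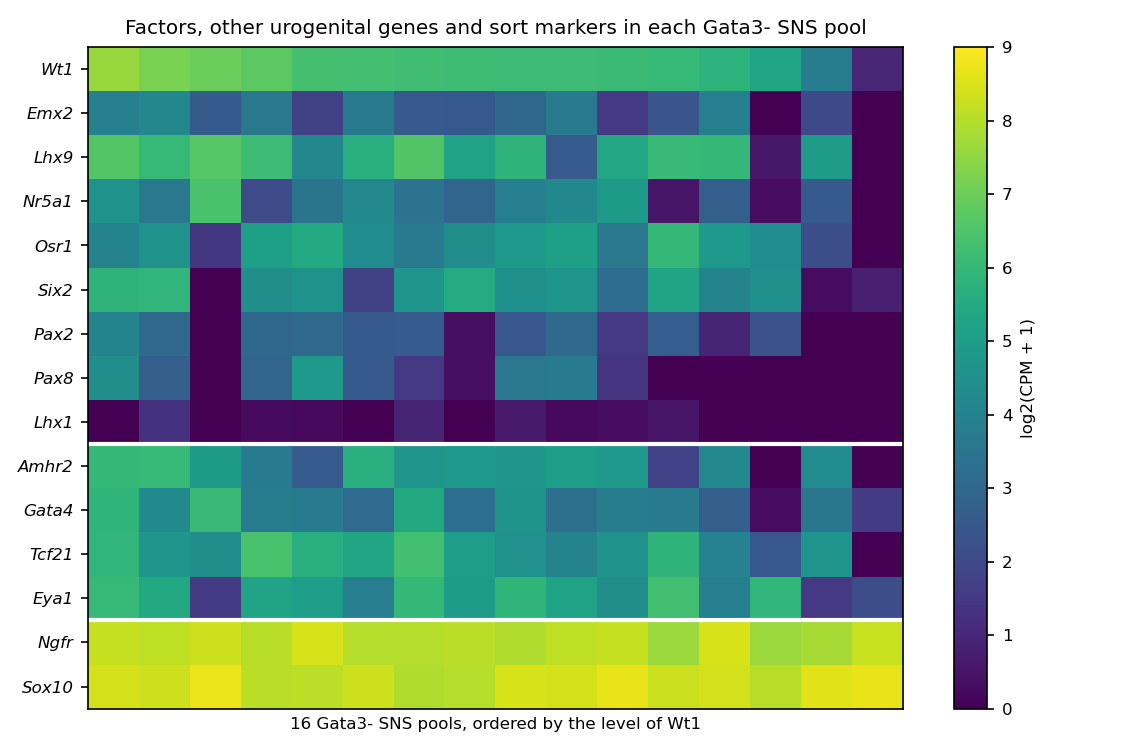
Levels as log2(CPM + 1) of the 9 factors (top), 4 other urogenital genes (middle) and Ngfr and Sox10 (bottom) in each of the 16 Gata3- SNS pools, ordered from the highest level of Wt1 (195 CPM, left) to the lowest (0.962 CPM, right). The bottom rows are bright in every column while the rows of the factors vary, and the column at the far right is dark for the factors and for Amhr2 and Tcf21.

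The factors did not vary as a block over these 16 pools. The pool with the highest Nr5a1 (83.9 CPM) also had the highest Lhx9 (99.1 CPM) and held Wt1 at 123.2 CPM, while Pax2, Pax8 and Six2 were at 0 and Osr1 was at 1.76 CPM. Another pool held Six2 at 21.7 CPM, Osr1 at 20.0 CPM, Wt1 at 38.2 CPM and Eya1, a partner of Six2 in the nephrogenic mesenchyme, at 60.1 CPM, while Lhx9 was at 0.487 CPM, Nr5a1 at 0.243 CPM and Emx2 and the gonadal receptor Amhr2 at 0. The pool of highest Wt1 (195 CPM) held 8 of the factors at 10 counts or more, with Lhx9 at 94.9 CPM and Six2 at 57.1 CPM, and the steroid enzyme Cyp11a1 at 66.4 CPM. As a description over the 16 pools, Pearson's r of log2(CPM + 1) was 0.79 for Osr1 with Six2, 0.78 for Pax2 with Pax8, 0.71 for Pax2 with Six2 and 0.71 for Pax2 with Osr1, factors of the nephrogenic lineage. It was 0.72 for Lhx9 with Emx2, 0.71 for Lhx9 with Wt1 and 0.58 for Lhx9 with Nr5a1, the factors of the gonadal ridge. The split was not clean. Wt1 had 0.65 with Osr1 and 0.60 with Pax2, while Pax8 had 0.45 with Six2 and 0.46 with Osr1, no higher than its 0.47 with Emx2. Among the lowest pairs were 0.19 for Lhx9 with Six2, -0.10 for Nr5a1 with Six2 and -0.01 for Nr5a1 with Osr1. The points share libraries and sort, and the 1 pool without the factors enters every pair.

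**Figure D4:**
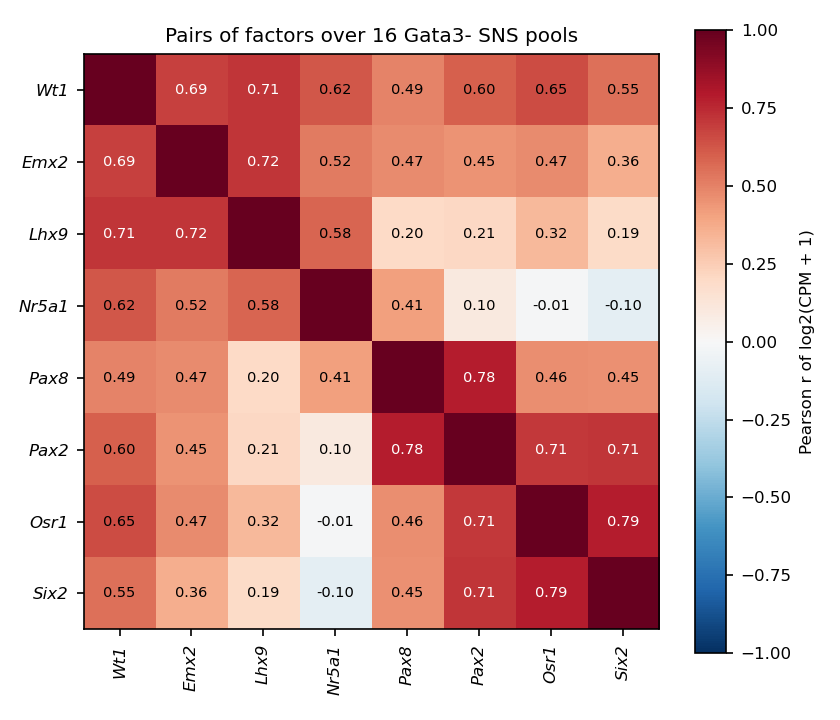
Pearson's r of log2(CPM + 1) between pairs of factors over the 16 Gata3- SNS pools, on a scale from -1 (blue) to 1 (red), for the 8 factors tested there. Wt1, Emx2, Lhx9 and Nr5a1 form a red corner with values from 0.52 to 0.72, and Pax2, Osr1 and Six2 another with values from 0.71 to 0.79, while Nr5a1 with Six2 is at -0.10 and Wt1 with Osr1, across the corners, is at 0.65.

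In the 17 Gata3+ MC pools the pairs were looser, with r of 0.53 for Wt1 with Emx2, 0.33 for Osr1 with Emx2 and -0.04 for Osr1 with Lhx9. The genes most like each factor there, by the same measure over 17 pools and 14222 genes (14221 for Emx2), were 2010320M18Rik for Wt1 (0.87), Alkbh3 for Osr1 (0.80), Tshz3 for Lhx9 (0.84) and Net1 for Emx2 (0.79). Efemp1 and Setdb1 were also among the 3 most similar genes for Wt1, mt-Co1 for Osr1, Dnm2 and A430073D23Rik for Lhx9, and AI504432 and Aldh1a2 for Emx2. In Gata3- SNS, a ranking chosen after the data were seen, Eya1 was the second gene for Six2 (0.93, after Phf19 at 0.98), Amhr2 the second for Nr5a1 (0.83, after Etnk2 at 0.86), Rspo1 the second for Pax2 (0.90, after Espn at 0.91) and Calb1 the third for Lhx9 (0.84). Lama1 led for Wt1 (0.87), Spock2 for Osr1 (0.86), Chtf8 for Pax8 (0.88) and Lor for Emx2 (0.87).

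MC and SNS, both from E11.5, were then compared with each other, over both GFP states. With the 6 SNS pools of high Pdgfrb kept, 5 of 8 factors tested were called, where 15.2% of 17477 genes were called higher and 17.7% lower in MC. Nr5a1 (log2 fold change -3.70, SE 0.60), Pax2 (-4.18, SE 0.62), Pax8 (-3.17, SE 0.70) and Six2 (-2.04, SE 0.63) were lower in MC and Osr1 (1.70, SE 0.47) was higher. Without those 6 pools 7 factors were called, where 19.7% of 17309 genes were called higher and 20.5% lower, with Wt1 (2.16) and Emx2 (1.80) now higher in MC as well and Osr1 at 4.12. This contrast averages over the GFP states, and among the Gata3- pools alone the means of Wt1 and Emx2 were higher in SNS than in MC (78.7 against 64.6 CPM and 7.03 against 5.09 CPM), within their spread. Lhx9 was not called either way (-0.25, 95% interval -1.35 to 0.85, with all SNS pools). Its GFP states went opposite ways, and the contrast averages them. Without the 6 SNS pools, its mean was 49.2 CPM in Gata3- SNS against 4.70 CPM in Gata3- MC. Among the Gata3+ pools it was 0.570 CPM in SNS against 4.94 CPM in MC. Nr5a1, Pax2 and Pax8 were too low to be tested within MC, so in both settings they entered through the SNS pools. Their direction was thus set by the filter on counts, and their calls restate their level in SNS. The numbers of factors called against all genes are therefore a description.

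The effect of GFP in MC minus that in SNS was tested in the same fit. With all SNS pools, it was called for Lhx9 (5.88, SE 1.08, adjusted p = 4.6e-05) and Nr5a1 (4.71, SE 1.28, adjusted p = 0.0063), that is, for 2 of 8 factors tested, where 4.38% of genes were called higher and 4.65% lower. Nr5a1 did not exceed 3 counts in any MC pool used and entered this test through the SNS pools, so its value restates the difference in SNS and is no evidence that the effect of GFP differs between the cell types. Without the 6 SNS pools, 6 factors were called, Wt1 (4.84), Nr5a1 (4.75), Osr1 (3.48), Lhx9 (6.43), Emx2 (4.47) and Six2 (4.66), where 5.64% of genes were called higher and 4.73% lower, and Pax2 and Pax8 were not, at adjusted p-values of 0.0867 and 0.0223. With those pools kept, Wt1 was at 0.74 (adjusted p = 0.635, edgeR) and Osr1 at -0.23 (adjusted p = 0.914). The limit given for Nr5a1 holds in both settings, so the number of factors called is a description. This limit also holds for Pax2 and Pax8, which were too low to be tested within MC, so their values cannot tell whether the effects differ.

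In the E10.5 haematopoietic cells the direction was the other way. Of 4 factors tested, 3 were higher in Gata3+ HC, where 17.1% of the 16200 genes tested were called higher and 9.53% lower. None of the 4 held 10 counts in more than 3 Gata3- HC pools, so each entered the test through the Gata3+ HC pools. Their shared direction was thus partly set by the filter on counts. Wt1 ranged from 0.456 to 51.7 CPM in the 20 Gata3+ HC pools with a median of 10.9 CPM, and from 0 to 16.8 CPM in the 20 Gata3- HC pools with a median of 0.458 CPM. The groups overlapped, with 8 Gata3+ pools above every Gata3- pool, and the log2 fold change was 3.35 (SE 0.63, adjusted p = 4.3e-05). Emx2 had a median of 1.55 CPM in Gata3+ HC and of 0 in Gata3- HC, and its highest Gata3- HC pool was at 8.89 CPM, with a log2 fold change of 2.84 (SE 0.79, adjusted p = 0.0039). Six2 was listed at 0 in 11 of 20 Gata3+ HC pools and reached 15.5 CPM, and it had 1 count in all in Gata3- HC. Its log2 fold change was 5.57 (SE 0.86, adjusted p = 1.7e-06), and the ratio of summed counts, scaled to depth, was 192 with a 95% counting interval of 33.9 to 7619 that leaves out the spread between pools. Osr1 had medians of 2.44 and 0 CPM and a log2 fold change of 2.32 that missed the threshold (SE 0.84, adjusted p = 0.0268). Nr5a1, Pax2, Pax8, Lhx1 and Lhx9 were too low to be tested.

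Markers of other cells rose with these factors in Gata3+ HC. Of the tested markers, 7 of 8 for mesenchyme, 9 of 9 for the sympathetic and neural crest list and 6 of 6 for epithelium were called higher, as were 5 of 6 for endothelium. Over all genes tested, 17.1% were called higher and 9.53% lower. A marker near 0 in Gata3- HC could enter through the Gata3+ pools alone, so these directions were partly set by the filter. Of the 6 haematopoietic markers, 5 were called lower and 1 higher, and their sum had medians of 1978 CPM in Gata3+ HC and 3627 CPM in Gata3- HC. The summed mesenchyme markers ranged from 12.3 to 605 CPM in Gata3+ HC with a median of 260 CPM, against 1.04 to 132.7 CPM and a median of 32.7 CPM in Gata3- HC. The sympathetic and neural crest list summed to medians of 55.2 and 4.31 CPM, with Phox2a and Foxd3 at a median of 0 in both, and the epithelium list to 53.4 and 6.74 CPM, with Cldn3 and Cldn4 at a median of 0 in both. Their part in the levels of the factors was not tested. In EC no factor reached 10 counts in 5 pools, so none was tested, and Wt1 was at 10 counts in 3 of 19 Gata3+ and 1 of 20 Gata3- pools.

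Around the factors, the other genes of the urogenital lineages were read from 4 lists. In SNS without the 6 pools, the list of coelomic epithelium, mesothelium and gonadal ridge (12 genes, 8 tested) had 6 genes lower and none higher in Gata3+ SNS, with a median log2 fold change of -5.09 against -0.01 for all genes. Over all genes tested, 5.48% were called lower and 4.94% higher. A gene near 0 in the Gata3+ pools could enter through the Gata3- pools alone, so the direction in these lists was partly set by the filter. Gata4 (-7.68), a GATA factor needed for the genital ridge, Amhr2 (-7.30), the receptor of anti-Mullerian hormone, Tcf21 (-6.78), Gata6 (-5.24) and Nr0b1 (-4.93), a nuclear receptor of the adrenal and gonad that acts with Nr5a1, were among them, and Cbx2 and Sox9 were not called. Upk3b, Msln and Lrrn4 of the coelomic list had medians of 0 in both SNS groups. The list of nephrogenic mesenchyme and tubule (12 genes, 10 tested) had 6 lower and none higher, with a median of -3.13. Hoxd11 (-6.09), Gdnf (-4.49), the ligand that draws out the ureteric bud, Hoxa11 (-4.18) and Sall1 (-3.93) were lower, and Eya1 (0.45, adjusted p = 0.592) was not called. With all SNS pools, each of these lists had 3 genes called lower and none higher, where 1.86% of all genes were called lower.

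The adrenal cortex and steroid synthesis list (12 genes, 9 tested) had 4 genes lower and none higher without the 6 pools, with a median of -0.83, and 1 lower with them. Of all genes tested, 5.48% and 1.86% were called lower in these 2 settings. Mc2r, the receptor of adrenocorticotropic hormone, ranged from 0 to 18.9 CPM in Gata3- SNS and was listed at 0 in all 15 Gata3+ SNS pools, at least 126.8-fold lower against a floor of 3 counts over the group. With Mc2r at this bound the median of the list was unchanged at -0.83. Of the steroid enzymes, Cyp11a1, Cyp17a1 and Hsd3b1 had medians of 0 in both SNS groups and both MC groups, although Cyp11a1 reached 66.4 CPM in 1 Gata3- SNS pool and Hsd3b1 20.3 CPM in 1 Gata3- MC pool. The mesonephric duct and epithelium list (16 genes, 8 tested) was mixed, with Ret (1.89), the receptor of Gdnf, and Gata3 itself (2.10), on which the pools were sorted, higher and Calb1 (-4.82) and Gfra1 (-0.58), the co-receptor of Ret, lower. The duct markers Cdh16, Wnt9b and Sim1 had medians of 0 in both SNS groups. Ret and Gfra1 are also expressed in sympathetic and neural crest cells, and the genes of these lists were not chosen for what they do in Ngfr+ cells.

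**Figure D5:**
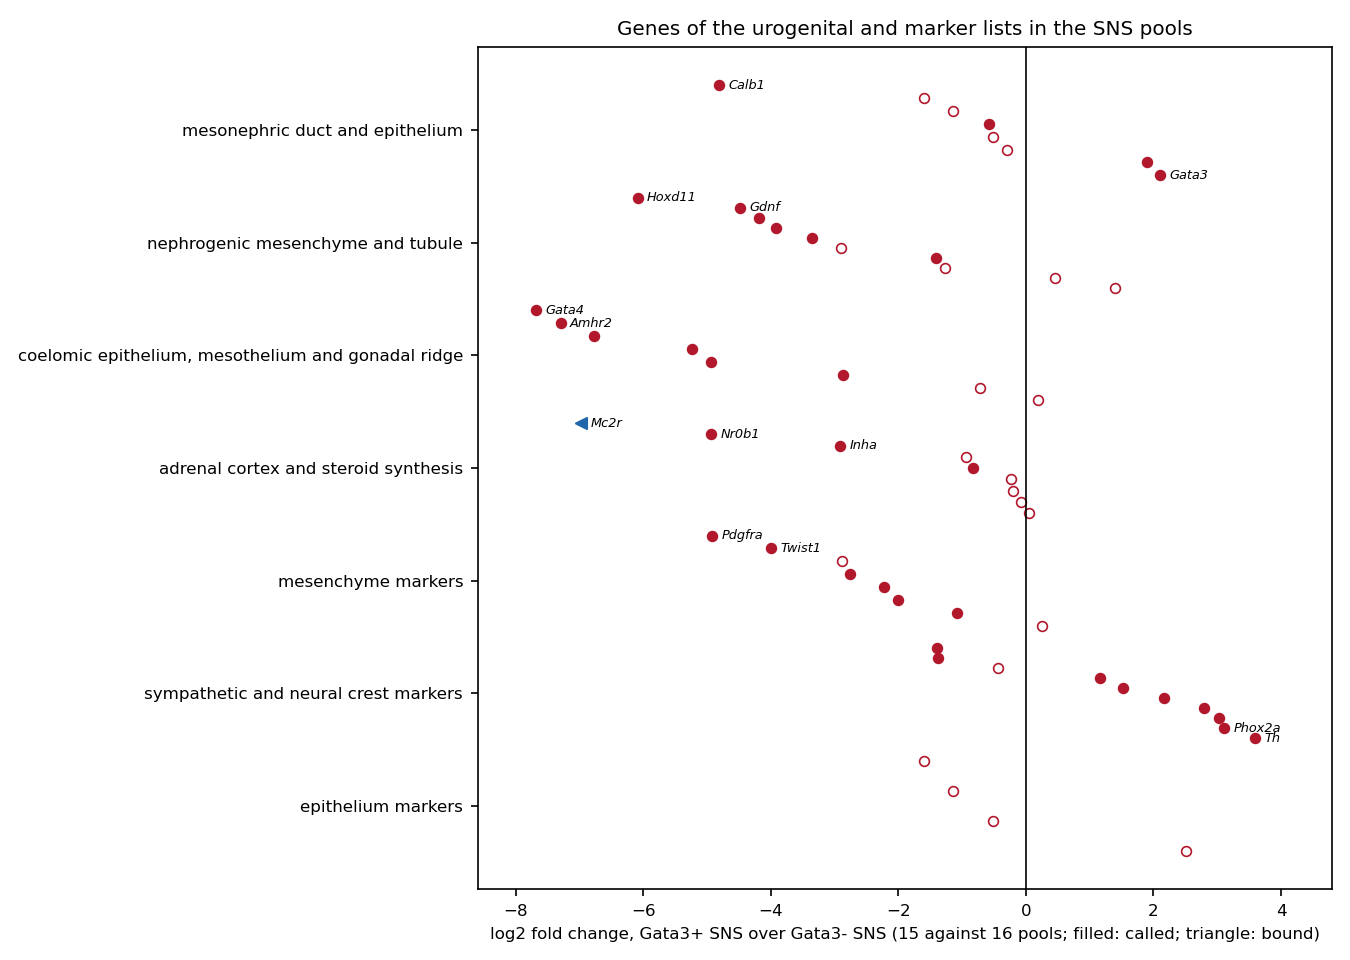
Log2 fold change between Gata3+ and Gata3- SNS pools (15 against 16) for the tested genes of 4 urogenital lists and 3 marker lists, with filled symbols for called genes and names beside those with the largest changes in each list. The triangle is Mc2r at its bound, since it was listed at 0 in all Gata3+ SNS pools. Symbols of the coelomic and gonadal list reach -7.68 while the sympathetic list reaches 3.59.

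In MC the same 4 lists split in both directions, where 5.52% of all genes tested were called higher and 4.89% lower. The nephrogenic list (10 tested) had Gdnf higher in Gata3+ MC (2.48, SE 0.68) and Bmp7 lower (-2.61, SE 0.70). Gdnf ranged from 1.13 to 45.9 CPM in Gata3+ MC with a median of 16.1 CPM, and was listed at 0 in 8 of 14 Gata3- MC pools and reached 15.3 CPM there. The coelomic and gonadal list (6 tested) had Gata6 higher (2.36, SE 0.18), at 69.7 to 181 CPM against 10.8 to 39.3 CPM with no overlap, and Sox9 (-1.13, SE 0.26) and Cbx2 (-0.86, SE 0.17) lower. The duct list (9 tested) had Gfra1 lower (-2.96, SE 0.68) and Gata3 higher, the latter being the gene the sort was made on and no result of the list, and the adrenal list (8 tested) had Cited2 higher (1.08, SE 0.20), a co-factor that acts with Wt1 on Nr5a1, and 1 gene lower. The medians were -0.46, -0.67, -0.39 and -0.19 in the order given, against 0.01 for all genes tested. Gata6 and Gdnf were thus lower in Gata3+ SNS and higher in Gata3+ MC, and the difference between these effects was not tested for them here.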

How the data were processed

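RNA of sorted pools of 20 cells was sequenced as Smart-seq2 libraries with ERCC spike-ins. The authors deposited 1 table of raw read counts per gene and pool, made per the labels with GSNAP and HTSeq on mm10, while the study's methods name STAR and Ensembl; the strand setting was not given in the sources used here. Groups came from the labels, and the columns carry no embryo. Pools passed with over 500000 reads on genes and spike-ins, over 20% on genes, under 20% mitochondrial and under 20% ERCC. Reads assigned to no gene were left out (median 51.2% of a pool). A gene entered a test when 5 of its pools held 10 counts or more. Tests were run with edgeR 4.0.16 (R 4.3.3; TMM scaling, robust quasi-likelihood fit), with Benjamini-Hochberg adjustment over all genes tested, and called at an adjusted p under 0.01 and an absolute log2 change over 0.1. SE is the log2 change divided by the root of F. CPM is the count over the total on genes, without TMM. Alternatives were DESeq2 1.42.0, the t-test with overestimated variance of scanpy 1.11.5, ERCC or DESeq2 size factors, other filters, and leaving out or keeping pools. On simulated data made from these pools (14791 genes), 42.86% of 2-fold and 77.17% of 4-fold changes that entered were called, with 1 false call. Gene positions were from GENCODE and promoters from RefSeq (GRCm38.p6). Named list genes were those called in MC with the largest changes, and those of SNS were named likewise after their values were seen, and the most similar genes were the 3 with the highest r, leaving out overlapping opposite-strand genes. The factors, lists and tests were chosen with earlier results of these data known. Intervals of fold changes are normal 95% intervals from the SE of the fit and cover the spread between pools, while those of summed counts and the limits from 3 counts cover counting error only. Some genes are not reported here.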

Additional observations from a re-analysis of the deposited data

Results flagged for a closer look

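The difference of the effect of GFP between mesenchymal and Ngfr+ cells passed the threshold for 2 of the factors, in an interaction term in edgeR over both cell types with all SNS pools that passed. For Nr5a1 the effect in MC minus that in SNS was 4.71 on the log2 scale (SE 1.28, adjusted p = 0.0063), and for Lhx9 it was 5.88 (SE 1.08, adjusted p = 4.6e-05). Nr5a1 did not exceed 3 counts in any MC pool used, so its value restates the difference in SNS and is no evidence that the effects differ. Lhx9 was at 0.08 (SE 0.80) within MC. Both values include the 6 SNS pools whose marker genes go against their labels, and without them they were 4.75 and 6.43.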

How the results depend on the processing

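No paired analysis was possible because the columns of the table carry no replicate number that ties a GFP+ pool to a GFP- pool, so the planned fit with a replicate block was not run. In MC, 0 factors were called and 1 (Wt1) with the failing pools included, with DESeq2, with the scanpy test or at an adjusted p of 0.05. Leaving out 1 pool at a time gave 0 to 1 factors, with Lhx9 between -0.51 and 0.56 and Six2 between -0.80 and 0.47 on the log2 scale, around 0 in both cases. Six2 in MC was at -0.07, and at 0.12 with ERCC size factors and 2.07 with the 6 high-Ngfr pools kept. Over all genes, the 1585 MC calls became 698 with those pools kept and 2617 at 0.05, and the 625 SNS calls became 1013 with ERCC size factors, 1631 without the 6 high-Pdgfrb pools and 1334 at 0.05. ERCC factors moved the median of all genes by 0.35 in SNS. In EC, 2 factors were called with no filter. With 10 counts required in 15 pools, 1 factor was called in HC and 3 in MC against SNS, where 2 were called with the high-Ngfr pools kept. The difference of effects was called for 1 factor with ERCC factors and for 4 at 0.05. It was called for 5 with the high-Ngfr pools kept and for 6 without the high-Pdgfrb pools, counts that each include Nr5a1. Osr1 in that difference was at -0.23, and at 0.31 with ERCC factors and 3.48 without the high-Pdgfrb pools. In SNS with all pools, Wt1 was called, at -2.92, when 1 of the 3 high-Pdgfrb Gata3+ pools was left out. Apart from these, 247 values of single factors kept their direction and their side of the threshold under the other settings, and 425 when 1 pool was left out. Factors that did not reach 10 counts in 5 pools could not be compared at this depth. The causes of these shifts were not tested.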
